A study of Rattus norvegicus with 6 samples.

Results

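The genes described here are 42 cell cycle and DNA replication genes, taken from a written list of rat gene symbols and found on the array by the transcript accession of each probe. Of these, 23 act in G2 phase and mitosis and 19 at the G1/S transition or in DNA replication. Probes were found for 39 of the 42 (21 mitotic, 18 G1/S and replication), among 26902 genes and unnamed features on the array. No probe was matched to Bub1b, Top2a or Mcm5.

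Livers of 6 male Wistar Hannover (RCCHan:WIST) rats were measured, 3 that received the vehicle corn oil (controls) and 3 that received pregnenolone-16α-carbonitrile (PCN), 100 mg/kg/day. Both groups were dosed by gavage on 7 days. The rats were 4 weeks old at purchase and had 1 week of quarantine. From each liver, 100 ng of total RNA was Cy3-labelled for a 1-colour Agilent array.

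PCN, a steroid drug, is a ligand of the rodent pregnane X receptor (PXR), through which liver responds to many foreign compounds, and PXR activators are known to enlarge the rodent liver. A cell enters the cycle when D-type cyclins with Cdk4 and then E-type cyclins with Cdk2 release E2F factors, which switch on the enzymes and the MCM helicase needed to copy DNA. Later, B-Myb (Mybl2) and FoxM1 switch on the mitotic genes: cyclin B with Cdk1, the Aurora and Polo kinases, spindle motors and the ubiquitin ligase APC/C that ends mitosis. Most hepatocytes of an adult liver rest outside the cycle, whereas the liver of a young growing rat still holds dividing cells.

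Each value below is a probe's processed signal as a percentage of the 75th percentile (P75) of its array. P75 was 633.5 to 758 intensity units on the control arrays and 487.7 to 627.3 on the PCN arrays, no spot was saturated, and 65.5% to 68.9% of control-array spots and 61.6% to 65.8% of PCN-array spots were well above background. The 3 control arrays shared 1 slide and scan and the 3 PCN arrays another, so effects of slide and of treatment cannot be told apart. The median local background was 37 to 39 units on the control slide and 26 to 30 on the PCN slide, and its part in the results was not tested. The treatment check was clear: Cyp3a23-3a1, a cytochrome P450 gene under PXR control, read 1161%, 1761% and 1762% of P75 in controls and 28190%, 28880% and 34510% with PCN (log2 fold change 4.31 ± 0.19 SE, limma adjusted p = 0.000169). All 11 hepatocyte markers listed, albumin among them, were well above background on all 6 arrays.

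Promoters are shown first because the mitotic genes, most of which read lower with PCN, are known for a shared promoter layout. In the textbook account, late cell cycle genes carry a CHR element (TTTGAA), bound by the DREAM and MuvB complexes, a short distance from CCAAT boxes, bound by NF-Y, whereas G1/S genes carry E2F sites. RefSeq windows of the assembly GRCr8, 250 bases before to 50 after the annotated start, were available for 32 promoters of 31 members. Both strands were searched for TTTGAA, for CCAAT and for E2F words. These were TTCCCGC in its canonical form, then also TTCGCGC, followed by TTGGCGC and finally TTGCCGC. Read on the opposite strand, TTGGCGC ends in CCAA and can overlap a CCAAT box. The 5 promoters printed were chosen after the values and matches had been seen, 3 from mitotic genes that fell and 2 from helicase genes that did not pass the test. Each line gives the 250 bases before the start, 5′ to 3′ on the gene's strand, with the matches in capitals. Cdc20 lies at chr5:137255800-137256049 on the minus strand, Cdk1 at chr20:19265043-19265292 on the plus strand, Prc1 at chr1:143659231-143659480 on the plus strand, Mcm7 at chr12:22163179-22163428 on the minus strand and Mcm2 at chr4:122918095-122918344 on the minus strand.
Cdc20: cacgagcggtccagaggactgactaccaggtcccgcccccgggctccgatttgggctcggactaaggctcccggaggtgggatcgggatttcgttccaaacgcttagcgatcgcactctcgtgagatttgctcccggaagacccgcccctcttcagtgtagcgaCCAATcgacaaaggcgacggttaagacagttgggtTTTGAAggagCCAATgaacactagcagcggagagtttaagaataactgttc
Cdk1: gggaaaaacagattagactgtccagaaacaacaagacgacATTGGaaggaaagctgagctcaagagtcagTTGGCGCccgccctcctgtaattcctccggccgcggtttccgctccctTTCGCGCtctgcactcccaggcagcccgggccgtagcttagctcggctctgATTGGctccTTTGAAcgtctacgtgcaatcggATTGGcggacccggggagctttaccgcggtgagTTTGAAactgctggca
Prc1: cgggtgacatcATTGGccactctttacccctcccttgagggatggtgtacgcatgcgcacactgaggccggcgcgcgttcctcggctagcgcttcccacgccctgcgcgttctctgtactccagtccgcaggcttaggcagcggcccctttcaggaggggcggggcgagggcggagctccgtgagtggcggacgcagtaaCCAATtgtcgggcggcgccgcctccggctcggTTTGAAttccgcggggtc
Mcm7: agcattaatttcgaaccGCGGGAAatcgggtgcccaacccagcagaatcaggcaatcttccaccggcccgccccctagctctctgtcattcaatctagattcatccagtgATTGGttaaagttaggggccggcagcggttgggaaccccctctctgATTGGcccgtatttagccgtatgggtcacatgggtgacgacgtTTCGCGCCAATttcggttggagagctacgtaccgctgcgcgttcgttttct
Mcm2: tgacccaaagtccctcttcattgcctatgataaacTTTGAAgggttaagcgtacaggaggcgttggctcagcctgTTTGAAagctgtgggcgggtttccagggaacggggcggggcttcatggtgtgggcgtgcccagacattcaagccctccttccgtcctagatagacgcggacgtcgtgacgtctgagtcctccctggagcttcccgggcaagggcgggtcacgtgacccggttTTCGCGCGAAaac

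Cdc20 had CCAAT words 86 and 41 bases before the start with TTTGAA between them at 51. Cdk1 had 2 TTTGAA words, at 72 and 16 bases, interleaved with 3 CCAAT words, and also 2 E2F words at 180 and 132 bases. Prc1 had TTTGAA at 18 bases and CCAAT at 50 and 239. In Mcm7 no TTTGAA was found, and an E2F word at 51 bases overlapped a second on the other strand and a CCAAT word. Mcm2 had both TTTGAA and E2F words, the former far from the start at 215 and 175 bases and the latter at 13 and 10, with no CCAAT word.

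Over the windows, TTTGAA was found in 11 of 19 mitotic promoters (57.9%; Kif2c has 2 promoters), in 1 of 13 G1/S and replication promoters (7.69%) and in 18.3% of all 33469 promoters. TTTGAA and CCAAT stood together in 52.6% of the mitotic promoters and 7.41% of all promoters. An E2F word was found in 8 of 13 G1/S and replication promoters (61.5%), in 2 of 19 mitotic promoters (10.5%, Ccnb2 and Cdk1) and in 9.52% of all promoters. Among members with a window, TTTGAA was in 7 of the 11 promoters of genes that fell with PCN (63.6%) and in 2 of the 13 of tested genes that did not (15.4%). All of those 11 but Ccnd3 and Ccne1 are mitotic, and most of the 13 are G1/S and replication genes. This split therefore largely repeats the one by class, and the 2 were not separated. These shares describe letters in a window and are not binding sites.

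**Figure D1:**
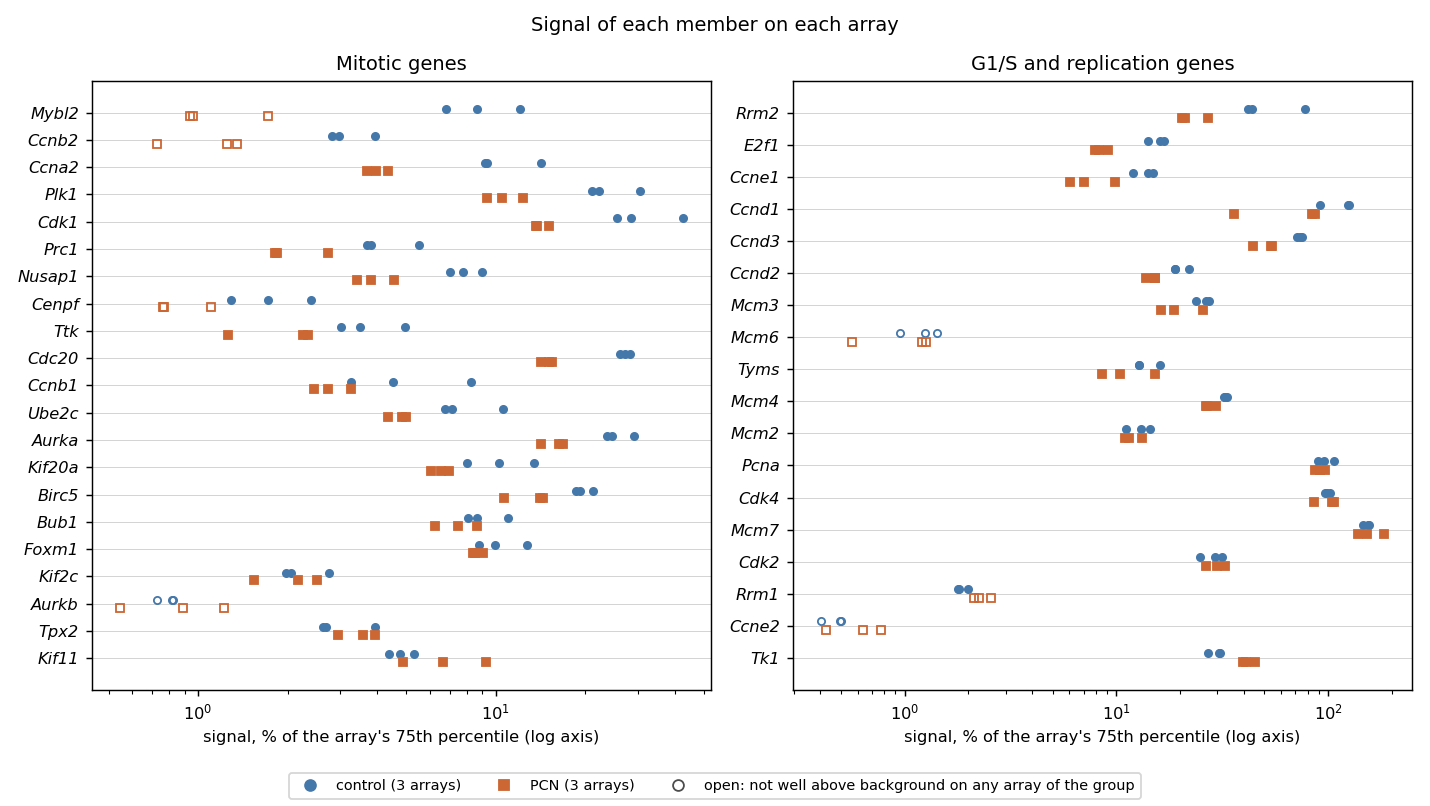
Signal of each member on each of the 6 arrays, as a percentage of the array's 75th percentile (log axis), with mitotic genes on the left and G1/S and replication genes on the right. Circles are the 3 control arrays and squares the 3 PCN arrays, drawn open where no array of the group had the gene well above background. For Ccnb2 and Mybl2 all PCN squares are open and lie below every control circle, whereas for Mcm2, Mcm7 and Pcna the groups overlap.

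Testing required a probe well above background throughout 1 group or both. This held for 33 of the 39 members, 6 of which entered through the control arrays alone. With PCN, 16 of the 33 fell, 1 rose and 16 did not pass the test (limma, Benjamini-Hochberg adjusted p under 0.05). Over all 16389 genes and features tested, 15.5% fell and 4.37% rose, 19.9% in all. The counts of tested genes by role below are to be read beside these shares. The median log2 fold change was −0.53 over all 39 members on the array and −0.0057 over everything on the array. In 21 of the 39 members all PCN arrays lay below all control arrays, a pattern found in 18.6% of all genes on the array, and in 2 members (Tk1 and Rrm1) all lay above, against 10.2%. In whole liver, fewer cells of a type and less RNA per cell cannot be told apart. The count of fallen members ranged from 8 to 18 over the 19 alternative settings and was 10 without PCN replicate 3.

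Among the mitotic genes, 11 of 18 tested fell and none rose by the limma test. At an unadjusted p under 0.05, 14 mitotic genes were lower and none higher, beside 6 lower and 1 higher of the 15 G1/S and replication genes. The share of all genes past an unadjusted p was not counted, so the unadjusted counts here and below stand without it. The 6 members let in by the control arrays alone are all mitotic and give 3 of the 11 calls (Ccnb2, Mybl2 and Prc1). Of the 12 mitotic members well above background on all 6 arrays 8 fell, beside 13.2% of all 15021 tested genes and features of that kind. The median over all 21 on the array was −0.83, with 18 negative and 3 positive (Kif11, Tpx2 and the untested Aurkb). Among the G1/S and replication genes, 5 of 15 tested fell and 1 rose, and the median over all 18 on the array was −0.28. That count of 5 became 2 on leaving out each array in turn other than PCN replicate 2, without which it was 4. The difference between the classes was described and not tested.

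**Figure D2:**
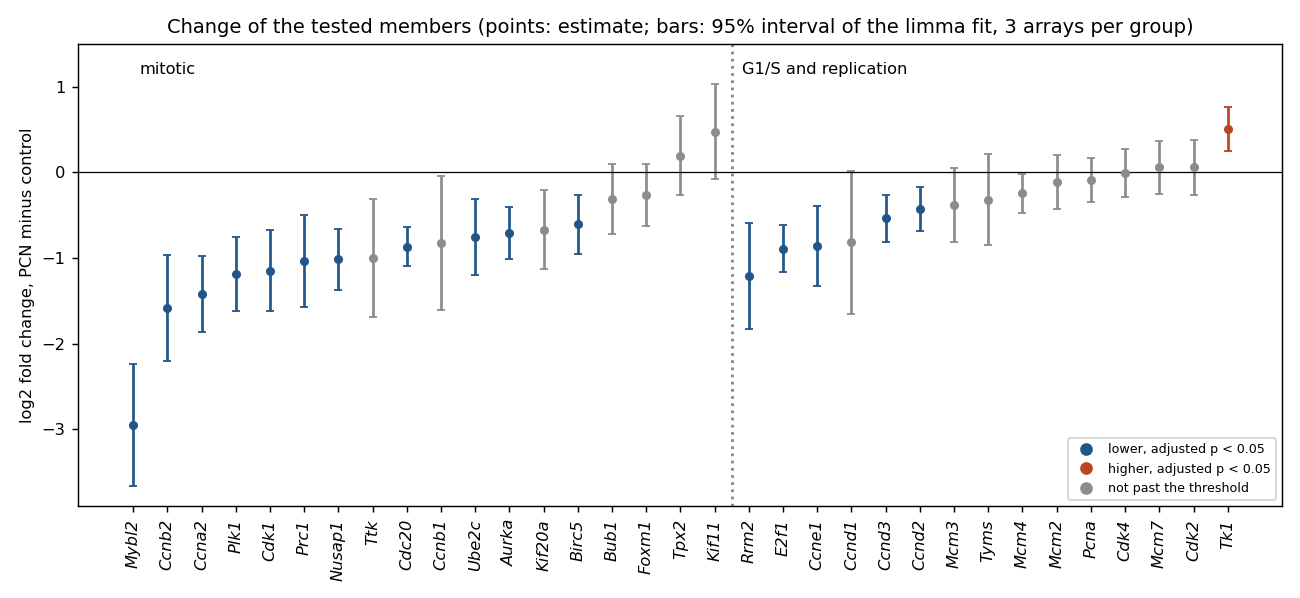
Log2 fold change of the 33 tested members, PCN minus control, as points with the 95% interval of the limma fit (3 arrays per group), mitotic genes left of the dotted line and G1/S and replication genes right of it, ordered by size. The points for Mybl2 and Ccnb2 rest on PCN values not well above background, Tk1 is the only member past the threshold above 0, and the intervals of Mcm2, Pcna, Cdk4, Mcm7 and Cdk2 span 0.

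Of the cyclins and the kinase that drive entry into mitosis, 3 of 4 fell. Ccna2 (cyclin A2, active in S phase and G2) read 9.37%, 9.22% and 14.2% of P75 in controls and 3.96%, 3.71% and 4.36% with PCN. Every PCN liver was below every control, and the change was −1.42 ± 0.19 on the log2 scale (2.68-fold lower, adjusted p = 0.00416). A dimmer probe for the same gene gave −1.36 ± 0.29. Ccnb2 (cyclin B2, a partner of Cdk1) read 2.98%, 2.82% and 3.94% in controls and 1.35%, 0.73% and 1.25% with PCN. The controls were all well above background and the PCN values were not. The change, −1.58 ± 0.26 as fitted (adjusted p = 0.0086), is therefore also given as 2.87-fold lower with PCN values held to a floor. For that figure, each PCN value was raised to the lowest signal counted as well above background on its array where it lay under it. It leaves out the error of the fit and is no lower bound, since another background correction gave a smaller change. Cdk1 itself, the kinase that starts mitosis, read 25.5%, 28.4% and 42.6% in controls and 15.1%, 13.7% and 13.7% with PCN. Its groups were fully separate and it was 2.21-fold lower (−1.15 ± 0.20, adjusted p = 0.0104). Ccnb1 (cyclin B1) read 3.26%, 4.50% and 8.24% in controls and 2.73%, 3.26% and 2.44% with PCN. The lowest control met the highest PCN value, and its −0.83 ± 0.33 did not pass the test (adjusted p = 0.127). With normexp background correction (offset 50), which pulls dim signals towards each other, Ccna2 (−0.41, adjusted p = 0.0711) and Ccnb2 (−0.075, adjusted p = 0.72) no longer passed. Over all their alternatives the adjusted p ran from 0.00095 to 0.0711 for Ccna2 and from 0.000538 to 0.72 for Ccnb2, while the call for Cdk1 held under all 19.

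Of the transcription factors that switch on mitotic genes, Mybl2 (B-Myb) fell and Foxm1 did not pass the test. Mybl2 read 12.0%, 8.68% and 6.78% of P75 in controls and 0.939%, 0.961% and 1.72% with PCN. It was well above background in all controls and in no PCN liver, and 7.65-fold lower with the same floor (fitted −2.95 ± 0.30, adjusted p = 0.0017). The other Mybl2 probe, well above background on 1 control array and not tested, gave −0.67 with overlapping groups. It read 1.74%, 1.67% and 1.80% in controls and 2.05%, 0.711% and 0.891% with PCN. The Mybl2 call held under all 18 alternatives that tested it, though its size shrank to −0.61 under normexp with offset 50 (adjusted p = 0.0232, range 0.000177 to 0.0232). Foxm1 read 9.93%, 8.76% and 12.8% in controls and 8.48%, 9.04% and 8.42% with PCN. These ranges overlap, the change was −0.26 ± 0.15 (adjusted p = 0.278), and its sign turned to 0.021 under quantile normalization.

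Of the mitotic kinases and the spindle checkpoint, 2 of 4 tested genes fell. Plk1 (Polo-like kinase 1, needed for spindle assembly and chromosome separation) read 21.1%, 22.2% and 30.6% in controls and 9.36%, 12.4% and 10.5% with PCN. No PCN value came near the controls, and the gene was 2.28-fold lower (−1.19 ± 0.18, adjusted p = 0.00688). Aurka (Aurora A, a kinase of the spindle poles) read 24.7%, 23.6% and 29.1% in controls and 16.8%, 14.2% and 16.3% with PCN. Here too the groups were separate, by a smaller step of 1.63-fold (−0.71 ± 0.13, adjusted p = 0.0111). Both calls held under all 19 alternatives. Ttk (Mps1, a checkpoint kinase) read 3.50%, 3.03% and 4.97% in controls and 1.26%, 2.34% and 2.25% with PCN. Its groups did not overlap, but −0.997 ± 0.290 missed the threshold (adjusted p = 0.0551), and under normexp with offset 50 its sign turned to 0.011. Bub1, another checkpoint kinase, gave −0.31 ± 0.17 with overlapping groups (adjusted p = 0.253). Aurkb (Aurora B) was well above background on no array and was not tested.

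Both tested genes of the machinery that ends mitosis fell. Cdc20, the activator of the APC/C, read 26.2%, 27.2% and 28.3% of P75 in controls and 15.1%, 14.2% and 15.5% with PCN. Replicates lay close together in each group, and the 1.82-fold difference was measured with the smallest SE among the mitotic members (−0.87 ± 0.09, adjusted p = 0.00217) and held under all 19 alternatives. Ube2c, the ubiquitin-conjugating enzyme that works with the APC/C, read 6.77%, 7.11% and 10.6% in controls and 4.995%, 4.86% and 4.35% with PCN. The groups were separate (−0.76 ± 0.19, adjusted p = 0.0323). The Ube2c call was lost on leaving out control replicate 2 or each PCN replicate in turn (adjusted p 0.0562, 0.0654, 0.0727 and 0.091) and under quantile, median, cyclic loess and normexp settings, with adjusted p from 0.0159 to 0.546 over its alternatives.

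Among 6 tested genes of the spindle, the kinetochore and the chromosomes, 3 fell. Nusap1, a microtubule-binding protein of the spindle, read 7.03%, 7.78% and 8.99% in controls and 4.55%, 3.42% and 3.81% with PCN. All controls stood above all PCN values (−1.02 ± 0.15, adjusted p = 0.00615). Prc1, which bundles the microtubules of the midzone before cells divide, read 3.70%, 3.82% and 5.51% in controls and 2.73%, 1.84% and 1.81% with PCN. With 2 of 3 PCN arrays well above background, the groups were separate (−1.03 ± 0.22, adjusted p = 0.0217). Birc5 (survivin, part of the chromosomal passenger complex) read 19.3%, 18.7% and 21.3% in controls and 14.4%, 14.1% and 10.69% with PCN. Again no values overlapped (−0.61 ± 0.14, adjusted p = 0.0293).

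The remaining spindle genes differed in sign. Kif20a, a motor protein of the midzone, read 8.00%, 10.3% and 13.4% in controls and 6.94%, 6.55% and 6.06% with PCN, without overlap but short of the threshold (−0.67 ± 0.19, adjusted p = 0.0533). Kif11 (Eg5, the motor that pushes the spindle poles apart) went the other way with 4.36%, 4.77% and 5.31% in controls and 4.87%, 9.24% and 6.63% with PCN. Its groups overlapped (0.48 ± 0.23, adjusted p = 0.198). Tpx2, which activates Aurora A on the spindle, gave 0.20 ± 0.19 (adjusted p = 0.522). Another 2 genes of this set were too dim to test: Cenpf was well above background on 1 control array and on no PCN array, and Kif2c on 2 control arrays and 1 PCN array. Prc1 missed the threshold on leaving out control replicate 3, PCN replicate 2 or PCN replicate 3 (adjusted p 0.0594, 0.0653 and 0.0646), and Birc5 on leaving out each control replicate in turn or PCN replicate 3 (0.0786, 0.0661, 0.0985 and 0.0535). Over all alternatives the adjusted p ran from 0.00167 to 0.222 for Nusap1, from 0.00472 to 0.78 for Prc1 and from 0.0193 to 0.0985 for Birc5, and normexp with offset 50 ended all 3 calls.

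Of the D-type cyclins, which couple growth signals to Cdk4, 2 of 3 fell and all 3 had every PCN liver below every control. Over all tested genes, 15.5% fell and 26.7% had every PCN liver below every control. Ccnd1, the cyclin best known from regenerating liver, read 124%, 125% and 91.6% of P75 in controls and 36.0%, 84.0% and 86.7% with PCN. PCN replicate 1 alone was far below the rest, and −0.81 ± 0.35 did not pass the test (adjusted p = 0.154). Ccnd2 read 22.0%, 18.9% and 18.8% in controls and 15.2%, 15.3% and 13.9% with PCN (−0.43 ± 0.11, adjusted p = 0.0376). Ccnd3 read 73.3%, 75.4% and 71.3% in controls and 54.0%, 54.4% and 44.4% with PCN (−0.53 ± 0.12, adjusted p = 0.0216). For both, the spread within groups was narrow and the step modest, 1.34-fold and 1.45-fold. The Ccnd2 call was lost on leaving out each of the 6 arrays in turn (adjusted p 0.0632 to 0.108) and the Ccnd3 call on leaving out each control replicate in turn or PCN replicate 3 (0.0665, 0.0707, 0.0647 and 0.0501). Over all alternatives the adjusted p ran from 0.0321 to 0.227 for Ccnd2 and from 0.0138 to 0.0732 for Ccnd3.

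At the G1/S switch itself, Ccne1 and E2f1 fell while the kinases Cdk2 and Cdk4 did not pass the test. E2f1, the factor that turns on S-phase genes, read 14.1%, 16.9% and 16.0% in controls and 8.29%, 7.95% and 9.11% with PCN. Values within each group lay close together, the groups were well apart (−0.89 ± 0.11, 1.85-fold lower, adjusted p = 0.00371), and the call held under all 19 alternatives. The dimmer E2f1 probe, not well above background with PCN, gave −1.66 ± 0.16. Ccne1 (cyclin E1, the partner of Cdk2) read 14.0%, 14.9% and 11.9% in controls and 6.06%, 9.88% and 7.04% with PCN. It was separate between groups (−0.86 ± 0.20, adjusted p = 0.0263), but the call was lost on leaving out each control replicate in turn or PCN replicate 1 or 3 (0.0834, 0.0836, 0.0515, 0.0621 and 0.0761) and its adjusted p ran from 0.0112 to 0.0877 over all alternatives. Cdk4 gave −0.0068 ± 0.12 (95% interval −0.28 to 0.27, adjusted p = 0.976) and Cdk2 0.059 ± 0.13 (−0.26 to 0.38, adjusted p = 0.794). The sign of both turned with the scaling, Cdk4 to 0.065 under quantile normalization and 0.20 under median scaling, Cdk2 to −0.13 under spike-in scaling. Ccne2 (cyclin E2) was well above background on no array and was not tested.

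The helicase and the clamp that copy DNA gave no call in either direction. None of the 5 tested genes, the helicase subunits Mcm2, Mcm3, Mcm4 and Mcm7 and the sliding clamp Pcna, passed the limma test, and 1 (Mcm4, lower) had an unadjusted p under 0.05. Mcm7 read 145%, 154% and 156% of P75 in controls and 153%, 184% and 139% with PCN, overlapping throughout (0.058 ± 0.13, 95% interval −0.25 to 0.36). Pcna read 95.5%, 106% and 89.7% in controls and 91.9%, 96.1% and 86.7% with PCN, likewise overlapping (−0.083 ± 0.11, −0.34 to 0.17). The clamp encoded by Pcna holds the DNA polymerases on the strand being copied. Mcm2 read 11.1%, 14.4% and 13.1% in controls and 13.2%, 11.5% and 10.98% with PCN (−0.11 ± 0.13, −0.43 to 0.21). Mcm3 read 23.6%, 26.5% and 27.4% in controls and 18.6%, 25.7% and 16.2% with PCN (−0.38 ± 0.18, −0.82 to 0.05). Mcm4 read 32.4%, 32.2% and 33.2% in controls and 26.6%, 29.4% and 26.7% with PCN (−0.24 ± 0.09, −0.47 to −0.017, adjusted p = 0.123). By the probes that stood for the genes, only Mcm4 of these subunits had groups that did not overlap. A dimmer Mcm3 probe, well above background on every array, read 2.997%, 4.27% and 4.16% in controls and 2.56%, 2.49% and 2.895% with PCN. Its groups did not overlap either, and it gave −0.51 ± 0.16 (limma p adjusted over probes = 0.0732). The dimmer Mcm2 and Mcm4 probes were well above background on no array and were not tested. The signs of Mcm2, Mcm7 and Pcna were not fixed: Mcm2 turned to 0.13 under quantile normalization, Mcm7 to −0.13 under spike-in scaling and Pcna to 0.12 under median scaling. Without PCN replicate 2, the highest PCN value of Mcm3, that gene passed (−0.57, adjusted p = 0.0366, range 0.0366 to 0.497). Mcm6 was well above background on no array and was not tested.

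The enzymes that supply DNA building blocks moved in opposite directions. Rrm2, the regulated subunit of ribonucleotide reductase, read 43.6%, 41.7% and 78.0% in controls and 21.01%, 20.4% and 27.1% with PCN. Control replicate 3 was high and all PCN values were below all controls (−1.21 ± 0.26, 2.31-fold lower, adjusted p = 0.0214). A second Rrm2 probe, not tested, gave −1.23. Tk1, the cytosolic thymidine kinase of the salvage pathway, read 27.1%, 30.6% and 30.9% in controls and 39.5%, 44.9% and 40.9% with PCN. It was the only member that rose, by 1.42-fold, with no overlap (0.50 ± 0.11, adjusted p = 0.0206). Tyms (thymidylate synthase) gave −0.32 ± 0.22 with overlapping groups (adjusted p = 0.365). Rrm1, the large reductase subunit, was well above background on 1 control array and no PCN array and was not tested. The Rrm2 call was lost without PCN replicate 1 or 2 (adjusted p 0.0607 and 0.0656, range 0.00424 to 0.0656) and the Tk1 call on leaving out each control replicate in turn or PCN replicate 3 (0.0684, 0.0536, 0.056 and 0.0523) and under spike-in scaling (0.31, adjusted p = 0.316, range 0.00911 to 0.316).

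Liver by liver, the mitotic genes separated the groups more widely than the G1/S genes. With each gene set to its control mean, the median of the 21 mitotic genes was −0.17, −0.13 and 0.30 in controls and −0.68, −0.68 and −0.88 with PCN. The median of the 18 G1/S and replication genes was −0.040, 0.040 and 0.036 in controls and −0.084, −0.18 and −0.25 with PCN. Over all genes on the array it lay between −0.12 and 0.039 on all 6 arrays. Control replicate 3 was the highest of the controls for 17 of 21 mitotic genes (81.0%), against 7 of 18 G1/S and replication genes and 34.4% of all genes. Without it the mitotic median was −0.62. The number of mitotic genes well above background was 19, 20 and 18 of 21 on the control arrays and 16, 16 and 12 on the PCN arrays, whereas for the G1/S and replication genes it was 15 or 16 of 18 on every array. Over all 26902 genes it was 17574, 17732 and 16584 on the control arrays and 16662, 16350 and 15414 on the PCN arrays, also lowest on PCN replicate 3.

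**Figure D3:**
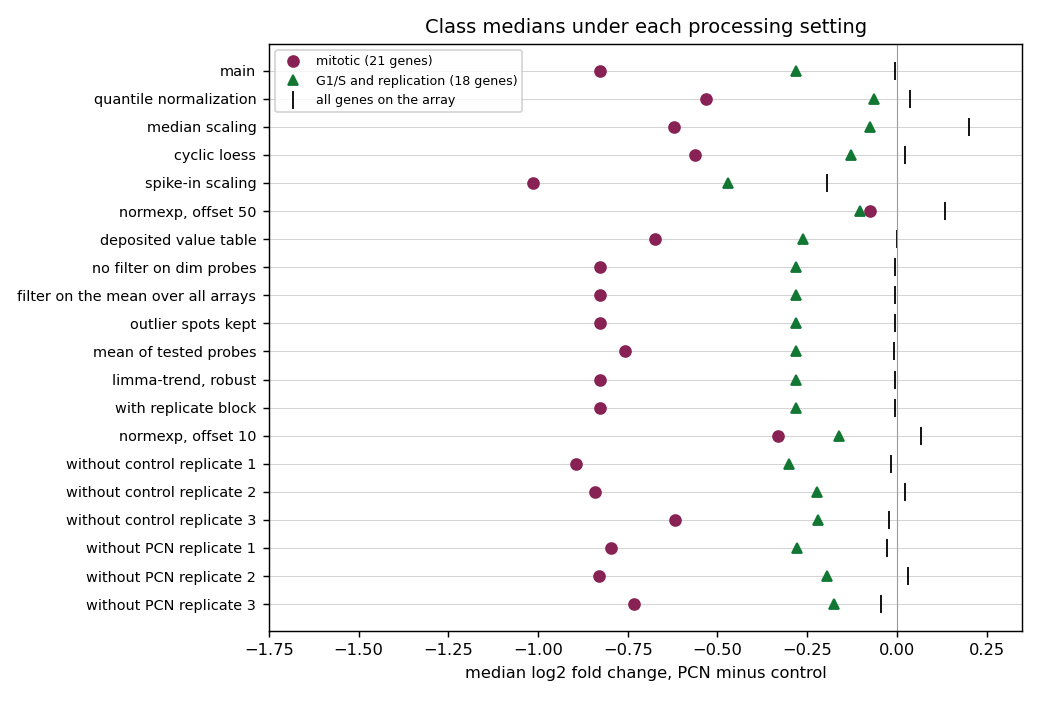
Median log2 fold change, PCN minus control, of the 21 mitotic genes (circles), the 18 G1/S and replication genes (triangles) and all genes on the array (ticks) under the main processing and each alternative, 1 line per setting. The mitotic median lies left of the G1/S median under every setting shown except normexp with offset 50, where both are close to −0.1, and it moves from −0.83 to −0.62 without control replicate 3.

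The order of the class medians changed under 1 setting. With normexp at offset 50 the mitotic median was −0.075 and the G1/S median −0.10, against 0.13 for all genes on the array. With offset 10, chosen after seeing the data, they were −0.33 and −0.16. Median scaling and spike-in scaling moved the median of all genes on the array to 0.20 and −0.19; the class medians under them were −0.62 and −0.074, and −1.02 and −0.47. Moving Ccna2 and Mybl2, which are transcribed from late G1 on, to the G1/S class gave −0.76 and −0.32.

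Across all genes, falls were more frequent among dim probes and rises among bright ones. When the 16389 tested genes and features were divided into 4 nearly equal groups by mean signal, the share that fell was 27.6% in the dimmest group, 16.9% in group 2, 10.4% in group 3 and 7.25% in the brightest, and the median log2 fold change went from −0.36 in the dimmest to 0.040 in the brightest. The share that rose was 2.32%, 3.39%, 5.13% and 6.64% in the same order. Of the mitotic genes, 13 lay in the dimmest group, where 6 fell, and 5 in group 2, where all 5 (Aurka, Birc5, Cdc20, Cdk1 and Plk1) fell. Of the G1/S and replication genes, 1 lay in the dimmest group (Ccne1, which fell), 9 in group 2, where 3 fell and 1 rose, and 5 in group 3, where 1 fell. In group 2, which both classes share, the median was −0.87 for the 5 mitotic genes, −0.32 for the 9 G1/S and replication genes and −0.095 for all genes. The part of signal in the class difference was not tested further.

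**Figure D4:**
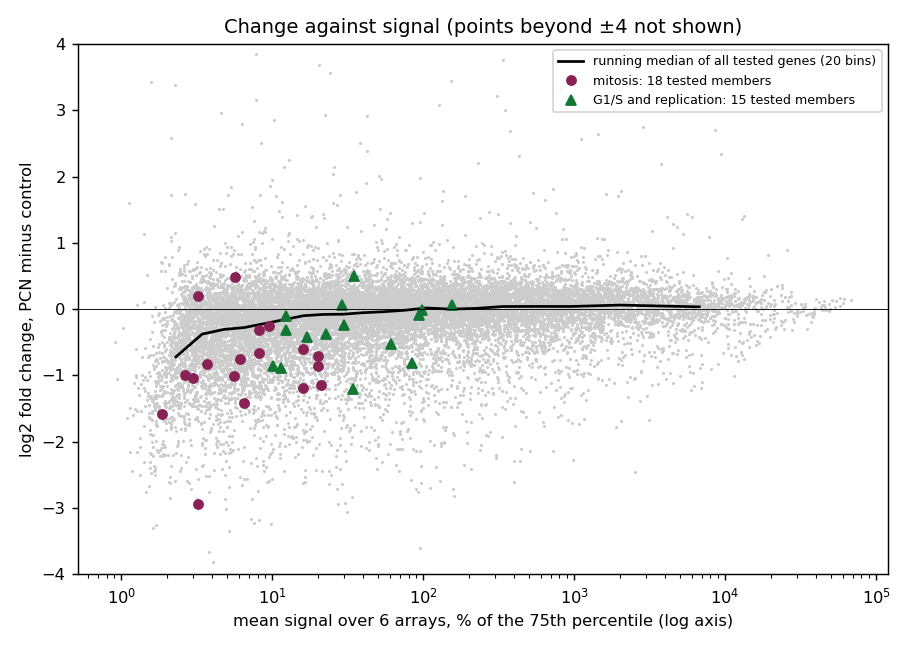
Log2 fold change, PCN minus control, against mean signal over the 6 arrays as a percentage of the 75th percentile (log axis), for all tested genes (grey), the 18 mitotic (circles) and the 15 G1/S and replication members (triangles). The line, the running median of all genes, bends below 0 at the dim end, and most mitotic members lie below it.

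Genes of the same processes outside the 42 were taken from written lists. Of 48 other mitotic genes on the array, 34 were tested, 19 fell and 2 rose, with a median of −0.56 over all 48. Over all tested genes, 15.5% fell and 4.37% rose. Of the 34, 27 were well above background on all 6 arrays and the rest were let in by the control arrays alone. Among the latter, Cenpa, Cep55, Espl1, Racgap1 and Spc25 fell. Ckap2, a microtubule-associated protein, read 13.5%, 11.3% and 23.6% in controls and 5.37%, 3.53% and 5.84% with PCN (−1.67 ± 0.31, adjusted p = 0.0131, and −0.68 with adjusted p = 0.0533 under normexp with offset 50, range 0.0014 to 0.0533). Cdca3, an adaptor for destroying the mitosis inhibitor Wee1, read 17.1%, 19.8% and 34.0% in controls and 7.65%, 7.05% and 8.47% with PCN (−1.55 ± 0.25, adjusted p = 0.00856). Control replicate 3 was the highest liver for both genes. Cep55, needed for the final separation of daughter cells, was not well above background with PCN and was 2.47-fold lower with the floor used for Ccnb2 (adjusted p = 0.0121). That call was lost under quantile normalization and both normexp offsets, down to −0.063 (adjusted p 0.00635 to 0.741 over its alternatives). Knstrn, a kinetochore protein, gave −1.33 ± 0.23 (adjusted p = 0.0108). Kif20b (−0.75, adjusted p = 0.055) and Kifc1 (−0.71, adjusted p = 0.0916) came nearest among those that did not pass. The 2 genes that rose, named after their values were seen, were Zwint, a kinetochore protein (0.97 ± 0.18, adjusted p = 0.0139), and Cks1b, a Cdk-binding protein (0.44 ± 0.10, adjusted p = 0.027). Mki67, the usual proliferation marker, was not matched to a probe. Over the alternatives, 7 to 21 of these genes fell, and the median ran from −0.75 to 0.019, the latter under normexp with offset 50. Without control replicate 2 the count that fell was 12. The Cks1b call was lost on leaving out 5 of the 6 arrays in turn (adjusted p up to 0.088), each array but PCN replicate 2.

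Few of the other replication genes passed the test. Of 53 on the array, 40 were tested, 3 fell and 2 rose, shares of 7.5% and 5% beside 15.5% and 4.37% of all genes, and the median over the 53 was 0.054. Chek1, the checkpoint kinase for stalled replication, read 4.45%, 4.41% and 5.22% in controls and 2.57%, 2.44% and 1.59% with PCN (−1.12 ± 0.20, adjusted p = 0.0113). Cdc45, which activates the MCM helicase, gave −0.67 ± 0.12 (adjusted p = 0.0108). Both calls were lost under 3 alternatives, quantile normalization and normexp with offset 50 among them, with a change as small as −0.074 for Chek1 (adjusted p 0.00355 to 0.686 over its alternatives) and −0.24 for Cdc45 (0.0084 to 0.163). Pold2, a subunit of DNA polymerase delta, read 50.9%, 66.2% and 50.4% in controls and 77.5%, 85.4% and 73.1% with PCN. Its rise of 0.50 ± 0.14 (adjusted p = 0.0494) stood at the threshold and was lost on leaving out control replicate 1, control replicate 3 or each PCN replicate in turn (adjusted p 0.0806 to 0.151). Dtymk, thymidylate kinase, was the other that rose (0.40 ± 0.10, adjusted p = 0.0353), and that call was lost on leaving out each of the 6 arrays in turn (adjusted p up to 0.108). Tipin (0.40, adjusted p = 0.0502) and Pold3 (0.46, adjusted p = 0.0767) did not pass. The count that rose was 12 under median scaling and 0 under spike-in scaling, so the direction of this list depended on the scaling, with medians of 0.26 and −0.14.

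Genes that hold the cycle back were read next. Of 20 CDK inhibitors and other brakes on the array, 19 were tested, and the median was −0.37. By the limma test 4 fell (21.05%) and none rose, near the 15.5% and 4.37% of all tested genes. At an unadjusted p under 0.05, 9 were lower and none higher, with no share of all genes counted at that level. Cdkn1a (p21), the main CDK inhibitor induced by p53, read 6948%, 6121% and 6985% in controls and 5064%, 4023% and 5480% with PCN. It was lower in every PCN liver without passing the test (−0.47 ± 0.14, adjusted p = 0.0624), though it passed under 5 of 19 alternatives (adjusted p 0.0119 to 0.194, change −0.97 to −0.26). Pkmyt1, the kinase that restrains Cdk1, gave −1.30 ± 0.24 (adjusted p = 0.012) and Cdkn2a, the gene of p16 and Arf, gave −0.83 ± 0.15 (adjusted p = 0.0131). Normexp with offset 50 ended both calls, with −0.31 for Pkmyt1 (adjusted p 0.00512 to 0.129 over its alternatives) and −0.14 for Cdkn2a (0.00357 to 0.374). Ccng1, a p53 target, read 56.5%, 91.1% and 63.1% in controls and 37.5%, 36.5% and 18.5% with PCN (−1.23 ± 0.32, adjusted p = 0.0377). Tob1, an antiproliferative protein, gave −0.45 ± 0.10 (adjusted p = 0.0233). E2f7, a repressor of E2F targets, gave −0.93 without passing (adjusted p = 0.083). The Ccng1 call was lost on leaving out each control replicate in turn or PCN replicate 2 (0.0679, 0.106, 0.0876 and 0.0565) and the Tob1 call on leaving out each control replicate in turn or PCN replicate 1 or 2 (0.0781, 0.0763, 0.0525, 0.0597 and 0.0537), and 2 to 8 genes of the list fell over the alternatives. That count was 2 on leaving out each control replicate in turn or PCN replicate 2. Of 13 other G1 regulators on the array, 11 were tested and none passed the limma test in either direction (at unadjusted p under 0.05, 1 was lower and 1 higher), with a median of 0.029. Rbbp4 (0.38, adjusted p = 0.0603) and Tfdp2 (−0.31, adjusted p = 0.129) came nearest.

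**Figure D5:**
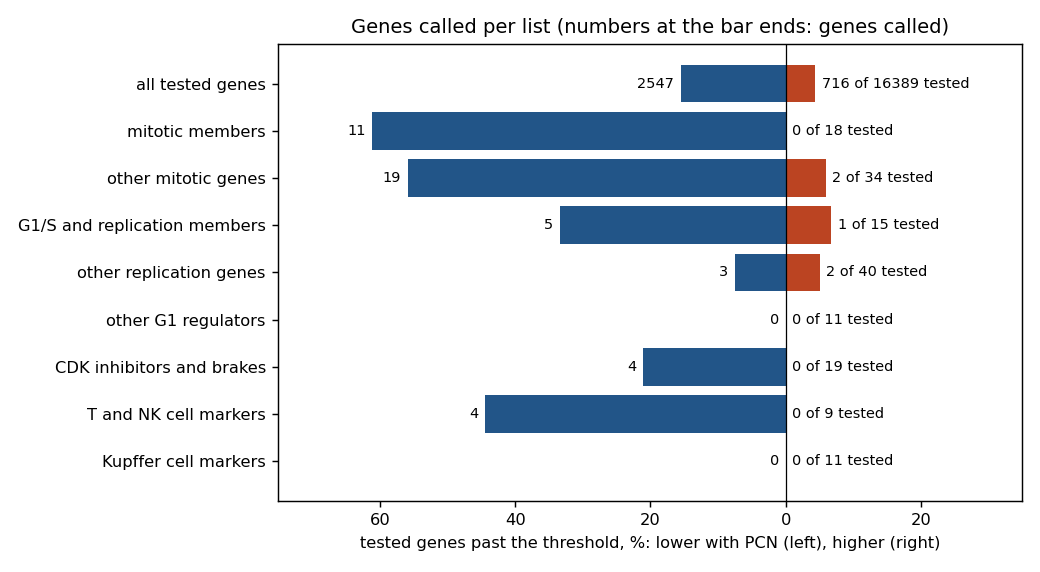
Share of tested genes that fell (left) and rose (right) with PCN in each list, with the number of genes at the bar ends and all tested genes at the top. The mitotic members (11 of 18) and the other mitotic genes (19 of 34) have the longest bars to the left, and the other replication genes (3 of 40) lie below the level of all genes. Both mitotic bars include genes let in by the control arrays alone. These are Ccnb2, Mybl2 and Prc1 among the members and Cenpa, Cep55, Espl1, Racgap1 and Spc25 among the others.

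Markers of cell types that divide in or pass through liver were read beside these counts. Of 12 T and NK cell markers on the array, 9 were tested and 4 fell: Cd3d (−0.66 ± 0.12, adjusted p = 0.0108), Lck (−0.67, adjusted p = 0.0203), Cd8b (−0.99, adjusted p = 0.0228) and Gzmb (−1.65, adjusted p = 0.0344). Over all tested genes the share that fell was 15.5%. Lck and Gzmb were tested through the control arrays alone, being well above background on 1 and 2 PCN arrays. Of the 12, 8 were negative and 4 positive (Nkg7 at 0.094, Prf1 at 0.21, and the untested Cd2 and Trat1), with a median of −0.29. The summed level of the 12 was 122.5% to 157.3% of P75 in controls and 101.9% to 119.2% with PCN, and Cd2 and Trat1 were well above background on no array. A sum follows its brightest probes: without Cd3d the other 11 summed to 80.1% to 107.1% in controls and 73.1% to 92.0% with PCN, which overlap. All 4 calls for these markers but that for Cd3d were lost under normexp with offset 50, where Lck turned to 0.058, and the count of 4 became 1 without control replicate 3 or PCN replicate 2 and 2 without control replicate 2, PCN replicate 1 or PCN replicate 3. Of 11 Kupffer cell markers none passed the limma test (3 were lower and none higher at unadjusted p under 0.05), all 11 were negative with a median of −0.39, and their summed level was 6826% to 7834% in controls and 4838% to 7032% with PCN. The overlap of these sums rested on Clec4f. Without it the other 10 summed to 4881% to 5573% in controls and 3427% to 4849% with PCN, without overlap. The summed levels of the other lists overlapped between groups or, for cholangiocyte markers, were higher with PCN (47.5% to 56.8% in controls against 61.0% to 69.9%). The latter rested on Epcam, without which the other 5 summed to 20.3% to 24.8% in controls and 20.2% to 25.4% with PCN, with no cholangiocyte call by limma among 5 tested (1 higher at unadjusted p under 0.05). The overlap of the endothelial and stellate sums also rested on a bright marker. Endothelial markers other than Kdr summed to 402.3% to 502.7% in controls and 359.7% to 368.6% with PCN, without overlap. Stellate markers other than Col3a1 summed to 1367% to 1477% in controls and 1117% to 1331% with PCN, again without overlap. On leaving out any other marker of these lists the sums overlapped. Among tested markers of the other lists, Fcnb (neutrophil and myeloid, 1 of 4), Cdh5 (endothelial, 1 of 6) and Lrat and Acta2 (stellate, 2 of 12) fell, and Rgs5 (stellate) and Hnf4a (hepatocyte) rose. Erythroid markers summed to 24440% to 27290% in controls and 19570% to 24630% with PCN, with none of 6 called by limma and none past an unadjusted p of 0.05. That sum is nearly all Hbb, without which the other 6 summed to 470.9% to 648.4% in controls and 584.5% to 729% with PCN. Of the B cell markers 1 of 5 (Cd22), of neutrophil and myeloid markers 3 of 8 (Elane, Csf3r and Ltf) and of erythroid markers 1 of 7 (Epb42) were well above background on no array. The part of these cell types in the fall of the mitotic genes was not tested.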

How the data were processed

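The members and gene lists were chosen with earlier results of these data known. Total RNA from 6 livers, 3 per group, was hybridised to 1-colour arrays. The scanner intensity values were deposited as made by Agilent Feature Extraction 10.7.3.1, which per the file headers subtracts background within an array and does not scale between arrays. Per the file headers the files also hold other marks per spot (well above background, saturated, outlier). The deposited value table holds a ratio, made by the authors, of processed signal to the array's 75th percentile: against the scanner values of 14679 brighter spots per array the log correlation was 1, with no centring of genes, column medians of 0.09 and 0.08, and up to 23.7% of values at 0. The sources used here do not give the authors' own test.

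Processed signals were put on a log2 scale and centred on each array's 75th percentile of non-control spots with R 4.3.3 and data.table version 1.17.8. Outlier and control spots were left out and the spots of a probe averaged, which left 14 probes without a value somewhere. A probe counted as well above background on an array where at least a share of 0.5 of its spots were. Of 30367 probes, 18004 matched 1 gene symbol through their accession and the RefSeq annotation of GRCr8 (the files name the build rn4, so probe coordinates are not given). The 39 members had 51 probes, 12 members having 2, and the brightest tested probe stood for a gene. The comparison was made in 1 two-sided limma 3.58.1 model (lmFit, then eBayes) without covariates, with p adjusted by Benjamini-Hochberg over all 16389 genes and features. Changes are log2 fold changes with SE, n = 3 livers per group. The samples are labelled biological replicates, and 6 arrays limit the precision.

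Named are all members, with array values for those past the test and for Mcm, Ccnd and Pcna genes, and of each companion list up to 4 past the test by size and up to 2 of the rest by adjusted p, plus Mki67, Cdkn1a and Cyp3a23-3a1. Array values of further members that did not pass were added after they had been seen. Alternatives were quantile, median, cyclic loess and spike-in scaling, normexp, the deposited table (log2 of value + 0.01), no filter or a filter on mean signal, kept outliers, the mean of probes, limma-trend, a replicate block and leaving out each array. No mean signal column was in the files, so normexp used the median signal and median background. The values of 1 gene that the naming rule selects from the companion lists are not reported here.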

Additional observations from a re-analysis of the deposited data

How the results depend on the processing

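Aurka, Cdc20, Cdk1, E2f1 and Plk1 stayed past the threshold under all 19 alternatives and Mybl2 under the 18 that tested it. The other 11 called members lost the call under at least 1. The count of members that fell was 8 with normexp (offset 50), 9 with no filter on dim probes and 10 to 13 on leaving out 1 array; that of members that rose was 0 with spike-in scaling, with no filter and with the replicate block, and 0 to 1 on leaving out 1 array. The mitotic count was 5 with normexp (offset 50), 7 with the filter on mean signal, which tested 9 mitotic genes, and 8 to 11 on leaving out 1 array. The G1/S and replication count was 3 with quantile normalization, cyclic loess, normexp (offset 50) and the replicate block, 2 with median scaling, 1 with no filter and 2 to 4 on leaving out 1 array. The mitotic median was −0.53 (quantile), −0.62 (median scaling), −0.56 (cyclic loess), −1.02 (spike-in), −0.075 and −0.33 (normexp, offsets 50 and 10) and −0.89 to −0.62 on leaving out 1 array. The G1/S and replication median was −0.064, −0.074, −0.13, −0.47, −0.10 and −0.16 in the same order and −0.30 to −0.18 on leaving out 1 array. Signs turned for genes that did not pass the test: Mcm2 to 0.13 (quantile), 0.095 (median), 0.086 (cyclic loess) and 0.026 (normexp, offset 50); Cdk4 to 0.065, 0.20, 0.019 and 0.037 in the same order and to 0.039 with offset 10, with −0.063 to 0.091 on leaving out 1 array; Cdk2 to −0.13 (spike-in), with −0.036 to 0.13 on leaving out 1 array; Mcm7 to −0.13 (spike-in), with −0.054 to 0.15 on leaving out 1 array; Pcna to 0.12 (median), Foxm1 to 0.021 (quantile), and Kif20b to 0.10, Ttk to 0.011 and the called Lck to 0.058 (normexp, offset 50). The cause was not tested, except that the filters change which genes are tested and left-out arrays reduce the samples. The counts of all genes that fell and rose were 2547 and 716, 1773 and 1426 with quantile normalization, 1866 and 2686 with median scaling, 3441 and 157 with spike-in scaling and 1684 and 283 with no filter. Replicate numbers did not pair the samples: same-numbered livers deviated from their group means with correlations of −0.10, −0.03 and −0.05, and no sample correlated best with its own number. With the replicate number as a block, 11 members fell (8 mitotic, 3 G1/S and replication), none rose, and 2067 of all genes passed in place of 3263. Normexp with offset 10 was chosen after seeing the data. Signal over background limits the dim genes: 27 of the 33 tested members were well above background on all 6 arrays.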
